A study of Mus musculus with 18 samples.

Results

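Genes that move, store and sense iron were followed in bulk RNA sequencing of the mouse RPE (retinal pigment epithelium), which nourishes the photoreceptors and clears their shed tips. The 10 genes are Tfrc, Trf and Slc11a2 (iron carriage and uptake), Fth1 and Ftl1 (storage), Slc40a1, Cp and Heph (export), and Aco1 and Ireb2 (iron sensing). The genes were chosen by symbol, and all 10 were among the 21859 rows of the deposited count table and among the 15944 rows tested. The 18 libraries fall into 4 groups: young animals (Young, 7 libraries), old animals (Old, 4), old animals with AAV2-tTA (Old-Control, 3) and old animals with AAV2-tTA;TRE-OSK (Old-OSK, 4). The vector is adeno-associated virus type 2 (AAV2), and tTA is the tetracycline transactivator, which switches on genes placed behind a TRE. Here the TRE precedes Oct4, Sox2 and Klf4 (OSK), so both vector groups carry tTA and 1 of them also OSK. Strain, ages, vector doses, the promoter driving tTA and the number of animals per library are not given in the sources used here. Since nothing in the labels says that libraries came from separate animals, p-values measure the spread between libraries, which may be partly technical.

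Iron reaches the RPE bound to transferrin (Trf) and enters through the transferrin receptor (Tfrc). It leaves the endosome through the divalent metal transporter DMT1 (Slc11a2), is stored in ferritin (Fth1 and Ftl1) and leaves the cell through ferroportin (Slc40a1), helped by the copper ferroxidases ceruloplasmin (Cp) and hephaestin (Heph). Iron regulatory proteins (IRP1, encoded by Aco1, and IRP2, encoded by Ireb2) bind iron-responsive elements (IREs), short hairpins in mRNA, when cell iron is low. Binding in a 5′ untranslated region (UTR) blocks translation, and binding in the 3′ UTR of Tfrc protects the mRNA from decay. Loss of Cp together with Heph is known to let iron build up in the mouse RPE. Counts per gene measure transcripts only, so control of ferritin and ferroportin at translation is outside these data.

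The IREs are shown first because their place in the mRNA, 3′ UTR in Tfrc and 5′ UTR in Fth1, Ftl1 and Slc40a1, goes with the known kind of IRP control. A 3′ UTR form of Slc11a2 is also known to carry an IRE, whose stem is interrupted. The protein-coding transcripts of GENCODE M21 (mouse build GRCm38) were searched on their sense strand for the hexamer CAGTGN. The 5 bases on its 5′ side had to pair with the 5 on its 3′ side (A-T, G-C or G-T), and a C had to precede the 5′ stem. Of 20899 genes with a 5′ UTR, 31 (0.148%) held a match there, among them Fth1, Ftl1 and Slc40a1. In 3′ UTRs 129 of 21022 genes (0.614%) held one, among them Tfrc. Each window is given 5′ to 3′ as DNA letters, with the loop hexamer in capitals.
Fth1, 5′ UTR of Fth1-201, chr19:9982733-9982759, plus strand: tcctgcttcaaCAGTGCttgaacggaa
Ftl1, 5′ UTR of Ftl1-201, chr7:45459780-45459806, minus strand: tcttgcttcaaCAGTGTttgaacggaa
Slc40a1, 5′ UTR of Slc40a1-201, chr1:45925466-45925492, minus strand: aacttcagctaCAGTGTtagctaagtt
Tfrc, 3′ UTR of Tfrc-201, chr16:32631220-32631246, plus strand: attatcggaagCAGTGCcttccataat
Tfrc, 3′ UTR of Tfrc-201, chr16:32631599-32631625, plus strand: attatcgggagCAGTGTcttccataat
Tfrc, 3′ UTR of Tfrc-201, chr16:32631664-32631690, plus strand: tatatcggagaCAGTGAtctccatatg
Tfrc, 3′ UTR of Tfrc-201, chr16:32631711-32631737, plus strand: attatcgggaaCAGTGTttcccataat
The ferritin windows were identical at 25 of 27 bases, counted from the 5′ end of the window with the base of Fth1 first, and differed by C3T and C17T. The first lies outside the stem that was searched and the second is the last base of the loop. Tfrc held 4 matches within its annotated 3′ UTR, and the 3′ UTRs of the other 9 members, Slc11a2 included, held none under this strict pairing rule, which allows no interruption of the stem. The Fth1 element was present in 4 of its 5 protein-coding transcripts, that of Slc40a1 in 1 of 4, and the Tfrc elements in 1 of 3.

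Library totals lay between 18104828 and 32348136 counts, and the lowest member, Slc40a1, had 17 to 120 counts per library. The labelled tissue was checked on 12 RPE markers: 11 had at least 1334 counts in every library, and Best1 had 8 to 83. The summed RPE marker level was 42370 to 69710 CPM (counts scaled to a common library total with TMM factors) in Young, 28350 to 50110 in Old, 21460 to 65810 in Old-Control and 16030 to 31450 in Old-OSK. Old replicate 4 (28350) and Old-Control replicate 2 (21460) stood apart from the other libraries of their groups on this sum. Markers of other cells were present: 12 rod markers summed to 454.1 to 3390 CPM in Young, 2398 to 8104 in Old, 1874 to 20110 in Old-Control and 3169 to 16820 in Old-OSK. In a bulk sample, fewer RPE cells and less RNA per RPE cell cannot be told apart. 6 libraries (Young replicates 5 to 7, Old-Control replicates 2 and 3, Old-OSK replicate 4) carry an M in their names, which the labels do not explain. They had 4040 to 5493 counts on 4 Y-linked genes, against at most 93 in the other 12, so M went with male RNA. It was in 3 of 7 Young, 0 of 4 Old, 2 of 3 Old-Control and 1 of 4 Old-OSK libraries, so the groups were unbalanced in it.

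On GRCm38, Heph lies at chrX:96455359-96574485 (plus strand), Ireb2 at chr9:54863789-54912530 (plus) and Slc11a2 at chr15:100387898-100425072 (minus). Tfrc lies at chr16:32608920-32632794 (plus), Trf at chr9:103204001-103230444 (minus) and Aco1 at chr4:40143081-40198338 (plus). The ferritin genes are Fth1 at chr19:9980598-9985098 (plus) and Ftl1 at chr7:45457944-45459884 (minus), and the other export genes Slc40a1 at chr1:45908068-45926523 (minus) and Cp at chr3:19957054-20009145 (plus).

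Levels can be compared between genes only per length, here as CPM per kilobase of all annotated exons. On this scale Trf was highest in the 18 libraries (2628 to 8663), followed by Ftl1 (602.8 to 1078) and Fth1 (245.9 to 432.7). Slc40a1 was lowest (0.1062 to 0.4711), and the other 6 members lay between 3.158 (the lowest of Cp) and 72.69 (the highest of Aco1). The gap between the ferritin genes rests largely on the length used, 3469 bases for Fth1 and 1340 for Ftl1. In CPM their means were close (1041 and 1140 in Young, 1152 and 1080 in Old). Annotated exons can exceed the length of the mRNA present, so no order of the ferritin genes is read from this scale. Trf alone took 0.994% to 2.7% of the counts of a library and had the highest count of any gene in 1 Young and 2 Old libraries. In GENCODE M21 2108 of its exon bases (63.5%) are shared with the same-strand gene model Gm20425, which has no row among the deposited counts. Whether the annotation used for counting held this model is not known. If it did, reads there could not be assigned to 1 of the 2 models, so the level of Trf is uncertain to that extent. Reads of ferritin genes can also map to near-identical pseudogene copies, so the levels of Ftl1 and Fth1 are uncertain. The row Ftl1-ps1 held 129 to 360 counts. These do not bound the uncertainty of Ftl1, since the treatment of multi-mapping reads is not given. Copies of Fth1 were not examined. Ftl1 also shares exon bases with a gene model on the opposite strand, Gm10252, which has no row among the deposited counts either. The strand setting of the counting is not given in the sources used here.

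**Figure D1:**
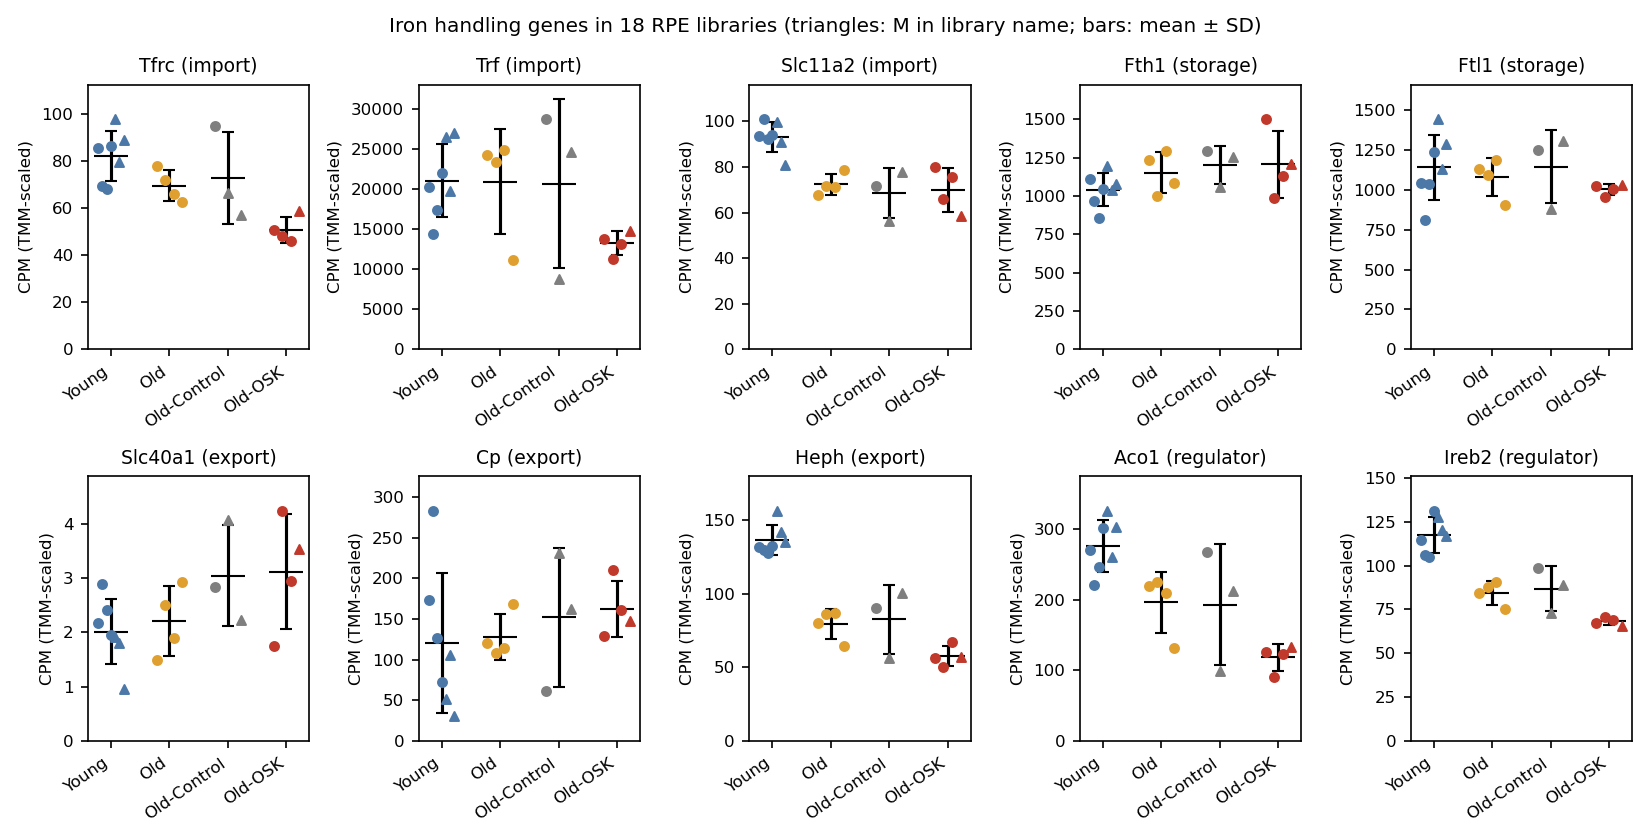
CPM (TMM-scaled, linear axis from 0) of the 10 genes in each of the 18 libraries, by group; points are libraries, triangles those with M in their names, horizontal bars the mean and error bars the SD. Heph and Ireb2 are at 128 CPM or more and 105.1 CPM or more in every Young library and below these values in the other 11 libraries, while Fth1 and Ftl1 overlap across the groups.

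The comparison of Old with Young asks how iron transcripts differ with age in untreated RPE. Heph, Ireb2 and Slc11a2 fell, and no member rose. 3 of the 10 genes were called lower (edgeR, adjusted p under 0.05 over all tested rows), against 4.16% of all tested rows called lower, and 9.56% called in either direction. 4 members had an unadjusted p under 0.05, all lower in Old (the called 3 and Aco1), against 13.4% of all rows. The median log2 fold change of the 10 was -0.16, against 0 for all tested rows. 3 members had Old and Young libraries that did not overlap, each lower in Old, against 5.61% of all rows that were lower in this way.

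Heph, the membrane-bound ferroxidase that works with ferroportin, showed the largest difference among the members. Its level was 79.93, 86.13, 86.83 and 64.76 CPM in the 4 Old libraries and 128 to 156.7 CPM (median 132.5) in the 7 Young libraries. Every Old library lay below every Young library. The mean fell from 136.6 ± 9.98 CPM (SD, n = 7) to 79.41 ± 10.2 CPM (n = 4), or -0.78 on the log2 scale (SE 0.13, edgeR adjusted p = 0.00296). Heph lies on the X chromosome, and its 3 Young libraries with M (156.7, 142.1 and 135.2 CPM) were above the 4 without (128 to 132.5 CPM). No Old library carries an M. Among the libraries without M, Heph was lower in Old by a log2 fold change of -0.71 (edgeR adjusted p = 0.0281). That fit called 1.26% of all rows.

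Ireb2 encodes IRP2, the iron sensor that is destroyed when iron is plentiful. It stood at 84.53, 88.01, 90.64 and 75.04 CPM in Old and at 105.1 to 131.5 CPM (median 116.7) in Young, with no overlap. On the log2 scale the difference was -0.47 (SE 0.09, edgeR adjusted p = 0.00482). Heph and Ireb2 were called in all 11 fits that each left out a library of these groups. Among the libraries without M the fall of Ireb2 was nearly as large (-0.43) but did not pass (edgeR adjusted p = 0.0759), where 1.26% of all rows did.

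Slc11a2 encodes DMT1, which moves ferrous iron out of the endosome. It was at 67.67, 71.81, 71.17 and 78.51 CPM in Old and at 80.83 to 101 CPM (median 93.53) in Young. The groups did not overlap, by a margin of a few CPM between Old replicate 4 and Young replicate 7. It fell by 0.37 on the log2 scale (SE 0.1, edgeR adjusted p = 0.0327). This call was fragile when a library was left out: only 2 of the 11 such fits (without Young replicate 3 or 7) kept it. Over the 11 fits the edgeR adjusted p was 0.0291 to 0.0742 and the log2 fold change -0.41 to -0.34. Among the libraries without M, Slc11a2 passed (-0.39, edgeR adjusted p = 0.0383), unlike Ireb2.

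Aco1, which encodes IRP1 and doubles as cytosolic aconitase, was at 220.2, 225.1, 209.2 and 132.2 CPM in Old and 221.1 to 326.8 CPM (median 270.2) in Young. 3 of the 4 Old libraries lay below all Young libraries. The log2 fold change was -0.49 (SE 0.21), and it did not pass over all rows (edgeR adjusted p = 0.143). Without Old replicate 4, the lowest, it was -0.34 (edgeR adjusted p = 0.445).

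The ferritin subunits and the iron carriers did not pass in this comparison. Trf was at 24280, 23390, 24900 and 11100 CPM in Old and 14420 to 27020 CPM (median 20330) in Young, so 3 Old libraries lay in the upper part of the Young range and 1 below it. Its log2 fold change was -0.01 (SE 0.3, edgeR adjusted p = 0.988), and 0.20 without Old replicate 4. Tfrc was at 77.83, 71.96, 66.09 and 62.61 CPM in Old against 68.2 to 97.94 CPM in Young (log2 fold change -0.24, SE 0.13, edgeR adjusted p = 0.228). Fth1, the ferroxidase subunit of ferritin, was at 1237, 998.5, 1291 and 1083 CPM in Old and 853.2 to 1196 CPM in Young (0.15, SE 0.13, edgeR adjusted p = 0.467). Ftl1, the subunit that favours core formation, was at 1133, 1095, 1185 and 907.5 CPM in Old, within the Young range of 807.8 to 1444 CPM (-0.08, SE 0.15, edgeR adjusted p = 0.763).

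Cp and Slc40a1 spread widely among libraries of a group. Cp, which also exists in a membrane-anchored form, ranged from 30.21 to 283.3 CPM in Young, a coefficient of variation of 71.7%, and from 107.7 to 168.9 CPM in Old (0.08 on the log2 scale, SE 0.46, edgeR adjusted p = 0.926). Slc40a1, the only known iron exporter of mammalian cells, was at 1.485, 2.508, 1.891 and 2.929 CPM in Old and 0.9562 to 2.89 CPM in Young (0.13, SE 0.3, edgeR adjusted p = 0.81).

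**Figure D2:**
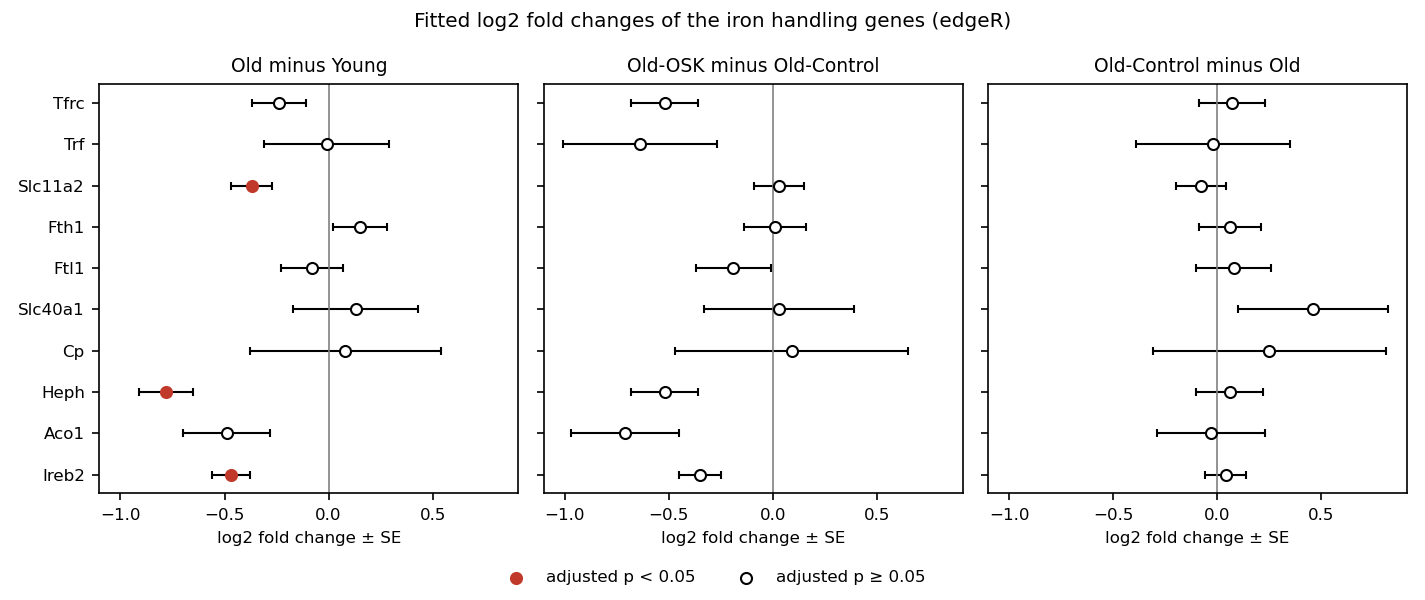
Fitted log2 fold changes (x axis, with SE bars) of the 10 genes in the 3 comparisons; filled points have an edgeR adjusted p under 0.05. Heph (-0.78), Ireb2 (-0.47) and Slc11a2 (-0.37) are filled in Old minus Young, and no point is filled in the other 2 comparisons.

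The vector groups were set against each other to see how iron transcripts differ with OSK. No member was called (0 of 10, against 0.728% of all tested rows). A fit with the replicate number as a block, which leaves out Old-OSK replicate 4, called 3.02% of all rows. The same libraries without the block gave 6.49%. The 4 members with an unadjusted p under 0.05 (Tfrc, Heph, Aco1 and Ireb2) all had lower means in Old-OSK, against 13% of all rows that were lower at that level. The median log2 fold change of the 10 was -0.27, against -0.03 for all tested rows. DESeq2 called 3 of the 10 (Tfrc, Heph and Ireb2, adjusted p = 0.0444, 0.0446 and 0.0421), each lower, where it called 10.1% of all rows.

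Ireb2 was the 1 member whose groups did not overlap, against 5.84% of all rows that were lower without overlap. It was at 67.05, 70.63, 69.23 and 65.81 CPM in Old-OSK and at 98.72, 73.16 and 88.77 CPM in Old-Control. The 4 Old-OSK values lay close together and below every other library of the series. Its fitted difference was -0.35 (log2, SE 0.1, edgeR adjusted p = 0.0826).

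Tfrc, the receptor that takes up transferrin-bound iron and carries the 3′ UTR elements shown above, was at 50.68, 48.06, 45.86 and 58.62 CPM in Old-OSK. In Old-Control it was at 94.9, 66.6 and 57.26 CPM, so only Old-OSK replicate 4 reached the Old-Control range. Its fitted log2 difference was -0.52 (SE 0.16, edgeR adjusted p = 0.0838). All 4 Old-OSK libraries were also below the 4 untreated Old libraries (62.61 to 77.83 CPM), a difference that was not tested.

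Heph was at 56.06, 50.51, 67.22 and 57.1 CPM in Old-OSK and at 90.66, 56.45 and 100.9 CPM in Old-Control. Old-Control replicate 2 lay inside the Old-OSK range. For Heph the difference was -0.52 (log2, SE 0.16, edgeR adjusted p = 0.0849). Aco1 followed the same library pattern, at 126.4, 90.08, 123.7 and 132.9 CPM in Old-OSK and 267.7, 98.77 and 213.3 CPM in Old-Control. The difference was -0.71 on the log2 scale (SE 0.26, edgeR adjusted p = 0.111). With the replicate number as a block, Heph, Aco1, Tfrc and Ireb2 were not called (edgeR adjusted p = 0.119, 0.127, 0.0924 and 0.223). These numbers are not shown to be pairs, and numbers 2 and 3 carry M in Old-Control and not in Old-OSK.

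Trf was at 13770, 11260, 13190 and 14810 CPM in Old-OSK and at 28760, 8725 and 24610 CPM in Old-Control. The Old-OSK libraries lay close together, and Old-Control replicate 2 was the lowest of the 18 libraries. The log2 fold change was -0.64 (SE 0.37, edgeR adjusted p = 0.281).

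The remaining members showed smaller differences between the vector groups. Fth1 was at 1501, 984, 1130 and 1209 CPM in Old-OSK and 1292, 1061 and 1253 CPM in Old-Control (0.01 on the log2 scale, SE 0.15, edgeR adjusted p = 0.99). Ftl1 stood between 956 and 1031 CPM in Old-OSK, a narrow range inside that of Old-Control (882.3 to 1304 CPM; log2 fold change -0.19, SE 0.18, edgeR adjusted p = 0.547). Slc11a2 was at 58.34 to 80.12 CPM in Old-OSK and 56.32 to 77.74 CPM in Old-Control (0.03, SE 0.12, edgeR adjusted p = 0.915). Cp (129.2 to 209.7 CPM against 61.83 to 231.4 CPM) and Slc40a1 (1.743 to 4.24 CPM against 2.222 to 4.059 CPM) had log2 fold changes of 0.09 (SE 0.56) and 0.03 (SE 0.36), with edgeR adjusted p of 0.945 and 0.968.

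These values depended on single libraries. Without Old-Control replicate 2, 5 of the 10 members were called lower in Old-OSK: Heph (-0.76, edgeR adjusted p = 0.00448), Aco1 (-1.05, 0.00673), Ireb2 (-0.49, 0.00709), Tfrc (-0.61, 0.0316) and Trf (-1.03, 0.0345). That fit called 17.9% of all tested rows. Without Old-OSK replicate 4, Tfrc (-0.64, edgeR adjusted p = 0.0309) and Ireb2 (-0.37, 0.0487) were called, where 11% of all rows were. Without Old-Control replicate 1 none was called, in a fit that called 0.0804% of all rows. The log2 fold changes of Tfrc, Trf and Aco1 moved there to -0.29, -0.33 and -0.40. Old-Control replicate 2 and Old-OSK replicate 4 had the highest rod marker sums of the 18 libraries (20110 and 16820 CPM, the next being 8275 in Old-OSK replicate 2), and the part of rod RNA in these calls was not tested. Libraries with or without M leave 1 library in a vector group, so no value within them was computed.

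**Figure D3:**
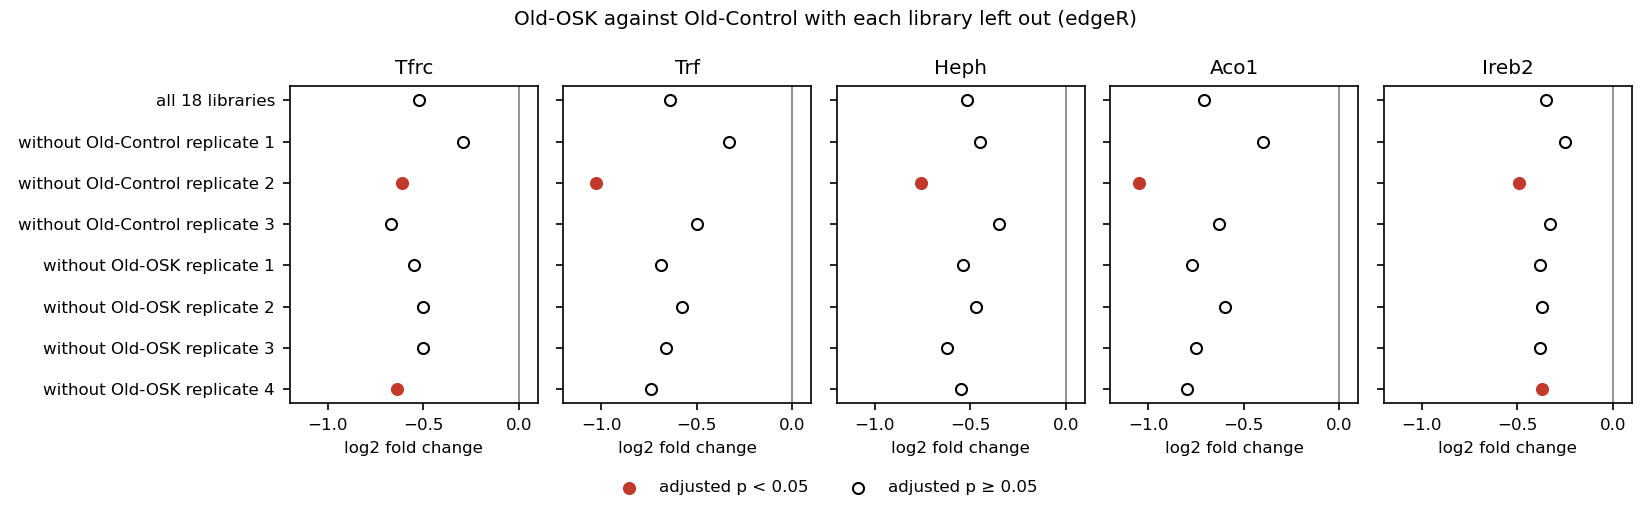
Log2 fold change (x axis) of 5 genes in Old-OSK against Old-Control, from the fit of all libraries (top row) and from 7 fits that each left out 1 library of these groups; filled points have an edgeR adjusted p under 0.05. All points lie below 0, and all 5 genes are filled only without Old-Control replicate 2.

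Several members were low in the libraries where the RPE markers were lowest. The 6 libraries with the lowest summed RPE markers were the 4 Old-OSK libraries, Old replicate 4 and Old-Control replicate 2, and they stayed the lowest 6 when the marker Ttr was left out. The same 6 libraries held the 6 lowest values of Heph, of Aco1 and of Ireb2, and 5 of the 6 lowest values of Trf, of Tfrc and of Ftl1. For Slc40a1 they held 5 of the 6 highest values. For Cp they held 3 of the 6 highest and none of the lowest, and for Fth1 2 of the highest and 1 of the lowest. Slc11a2 had 3 of its 6 lowest values there. The number of 6 libraries was chosen after the values were seen, and the share of all rows with such a pattern was not computed. Since 4 of the 6 are the whole Old-OSK group, movement between libraries is not separated here from the group difference. Within Old-OSK, replicate 2 had the lowest RPE sum. It also had the lowest Heph, Aco1 and Trf of that group, but the highest Ireb2.

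Divided by the summed RPE markers of the same library, Trf was at 0.328 to 0.411 in Young, 0.392 to 0.502 in Old, 0.407 to 0.437 in Old-Control and 0.438 to 0.702 in Old-OSK. On this scale each Old-OSK library was above each Old-Control library, narrowly (0.438 against 0.437), whereas in CPM 2 of the 3 Old-Control libraries were above all Old-OSK libraries. The divisor itself was 16030 to 31450 CPM in Old-OSK and 21460 to 65810 CPM in Old-Control. A transcript that is less reduced than these markers is therefore higher on this scale. The share of all rows that does so was not computed, so no rise of Trf is read from it. The part of the RPE marker level in the differences between Old-OSK and Old-Control was not tested. In Old, replicates 1 to 3 had RPE sums of 48700 to 50110 CPM, inside the Young range, and had 79.93 to 86.83 CPM of Heph. Without Old replicate 4 the log2 difference of Heph was -0.7 (edgeR adjusted p = 0.0167). The part of the RPE marker level in the differences between Old and Young was not tested either. Macrophage markers also differed with age: 12 of 14 were called higher in Old, against 5.4% of all tested rows. Their sum was 509.8 to 692.6 CPM in Young and 785.2 to 1308 CPM in Old. Between the vector groups it was 873.3 to 1098 CPM in Old-OSK and 961.9 to 1196 CPM in Old-Control. For Müller glia, the support cells of the retina, 10 markers were taken, among them Rlbp1, which is also on the RPE list. Their sum, not independent of the RPE sum, was 11480 to 14580 CPM in Old-OSK and 13310 to 21000 CPM in Old-Control, which overlapped. A subset of 4 (Aqp4, Kcnj10, Gfap and Car14) summed to 435 to 681.1 CPM in Old-OSK and 708.1 to 1414 CPM in Old-Control, without overlap. None of the 10 was called between these groups. Of 9 stroma markers 2 were called lower in Old, against 4.16% of all tested rows. Their sums were 265.6 to 389.2 CPM in Old and 388.6 to 574.8 CPM in Young. The part of these cells in the values of the 10 genes was not tested.

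**Figure D4:**
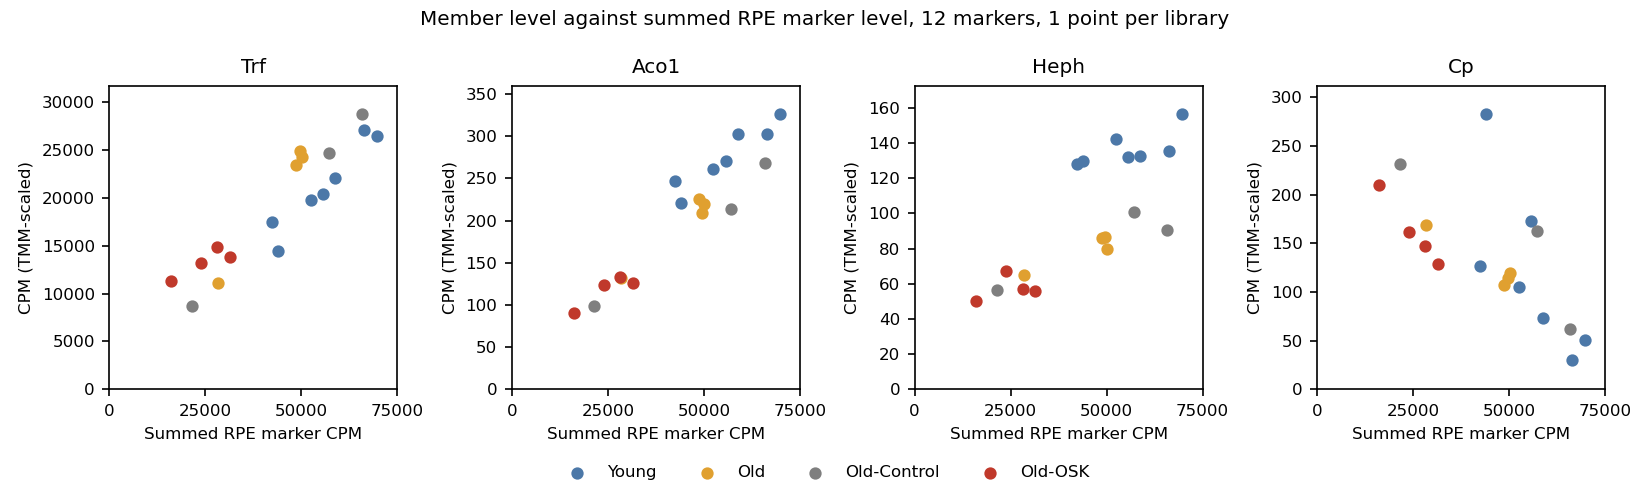
CPM of Trf, Aco1, Heph and Cp (y axes) against the summed CPM of 12 RPE markers (x axis), 1 point per library coloured by group. The 4 Old-OSK libraries, Old replicate 4 (28350 CPM on the x axis) and Old-Control replicate 2 (21460 CPM) lie together at the left, where Trf, Aco1 and Heph are low.

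Whether the AAV2-tTA vector itself went with a difference was examined by setting Old-Control against Old. No member was called (0 of 10, against 0% of all tested rows), and 0 had an unadjusted p under 0.05, against 3.74% of all rows. DESeq2 likewise called 0. The largest log2 fold changes were those of Slc40a1 (0.46, SE 0.36) and Cp (0.25, SE 0.56), with edgeR adjusted p of 0.9 and 0.977. For Heph (0.06, SE 0.16), Ireb2 (0.04, SE 0.1) and Slc11a2 (-0.08, SE 0.12), the members called with age, the Old-Control and Old libraries overlapped. This comparison shares the Old libraries with that of Old and Young.

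By group mean, Heph ran from Young (136.6 CPM) through Old-Control (82.68) and Old (79.41) to Old-OSK (57.72), and Ireb2 in the same order from 117.5 through 86.88 and 84.56 to 68.18 CPM. Old-Control and Old, neighbours in that order, overlapped for both genes. Old and Old-OSK, the next neighbours, overlapped for Heph (64.76 to 86.83 against 50.51 to 67.22 CPM) and not for Ireb2 (75.04 to 90.64 against 65.81 to 70.63 CPM), and were not tested against each other. Tfrc ran from 82.33 CPM in Young through 72.92 in Old-Control and 69.62 in Old to 50.8 in Old-OSK. Neighbours in this order overlapped except Old and Old-OSK, which were not tested against each other. Slc11a2 stood at 93.17 CPM in Young and at 72.29, 69.96 and 68.59 CPM in Old, Old-OSK and Old-Control, which overlapped.

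Genes whose pattern over the 18 libraries was most like that of the 3 called members were sought among 10224 other genes. Likeness was the root mean square difference of centred log2 CPM. For Heph, whose own log2 CPM had an SD of 0.546, the nearest were Tyr, the tyrosinase of melanin synthesis (0.102), and Ildr2 (0.134). The genes nearest to Ireb2 (SD 0.336) were Impad1 (0.069) and Mfsd14a (0.076), and those nearest to Slc11a2 (SD 0.25) were Pdlim5 (0.095) and Pon2 (0.104).

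Other genes of iron and heme handling were taken from lists of import, storage, export, regulation, heme synthesis and turnover, iron-sulfur cluster assembly and other IRE transcripts. With age, 9 of 88 passed (5 up, 4 down), which is 10.2%, near the 9.56% of all rows. Their median log2 fold change was -0.08, against 0 for all rows. In Old-OSK against Old-Control none of the 88 was called by edgeR, and the median was -0.15, against -0.03 for all rows. An unadjusted p under 0.05 was found for 25 of the 88 (28.4%), near the 26.3% of all rows.

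The import list held 5 of the 9 called genes, 3 higher and 2 lower of 15 tested. Steap3, the reductase that prepares endosomal iron for DMT1, was at 11.93, 9.041, 10.84 and 9.205 CPM in Old and 5.797 to 7.612 CPM in Young. Every Old library lay above every Young library (log2 fold change 0.62, SE 0.11, edgeR adjusted p = 0.00296). It was called in all 11 fits without a library, but not among the libraries without M (0.60, edgeR adjusted p = 0.0852), where 1.26% of all rows were. Its levels were highest in Old-OSK (13.84 to 16.11 CPM against 9.471 to 10.81 CPM in Old-Control; 0.57, SE 0.13, edgeR adjusted p = 0.0558). Its direction with age was opposite to that of Slc11a2, which acts after it in the endosome.

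Ltf, the iron-binding protein lactoferrin, and Slc39a8, a zinc and iron transporter, rose with age but spread widely. Ltf was at 2.107, 34.28, 21.56 and 70.95 CPM in Old and 0.3961 to 8.519 CPM in Young (log2 fold change 3.15, SE 0.81, edgeR adjusted p = 0.0267). Slc39a8 was at 5.125, 25.82, 30.98 and 72.12 CPM in Old and 1.744 to 14.63 CPM in Young (2.27, SE 0.59, edgeR adjusted p = 0.029). Old replicate 1 lay within the Young range for both genes, and Old replicate 4 was highest for both. Without Old replicate 4 neither was called (edgeR adjusted p = 0.15 and 0.189). Scara5, a receptor for ferritin, fell (-0.78, SE 0.22, edgeR adjusted p = 0.0386; 17.96 to 31.52 CPM in Old and 40.19 to 52.59 CPM in Young), as did the reductase Steap2 (-0.33, SE 0.1, edgeR adjusted p = 0.0465). Leaving out 1 library at a time kept the call of Scara5 in 3 and of Steap2 in 1 of the 11 fits, and both were named after the values were seen, beyond the 3 genes per list that the naming rule allows.

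In heme turnover, Blvrb, a biliverdin reductase, rose (log2 fold change 0.57, SE 0.15, edgeR adjusted p = 0.0264) and Pgrmc1, a heme-binding membrane protein, fell (-0.33, SE 0.09, edgeR adjusted p = 0.0297), 2 of 13 tested. Of 23 iron-sulfur genes, Nfu1, a cluster carrier, rose (0.37, SE 0.11, edgeR adjusted p = 0.0471) and Cisd2 fell (-0.45, SE 0.12, edgeR adjusted p = 0.028). Without Old replicate 4, a fit that called 2.47% of all rows, Blvrb (0.40), Pgrmc1 (-0.28), Nfu1 (0.22) and Cisd2 (-0.36) were not called (edgeR adjusted p = 0.156, 0.133, 0.262 and 0.133). With M as a covariate 1 of the 9 genes, Steap3, was still called (edgeR adjusted p = 0.0124), and the other 8 had an adjusted p of 0.0563 to 0.104, where 3.76% of all rows were called. None of the genes tested for storage (5), export (3), regulation (12), heme synthesis (12) and other IRE transcripts (7) was called with age. Among them Ncoa4, which delivers ferritin to the lysosome and was named after the values were seen, had the lowest p (-0.28, SE 0.09, edgeR adjusted p = 0.0615), at 52.26 to 57.9 CPM in Old and 62.27 to 74.09 CPM in Young.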

How the data were processed

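The authors deposited 1 table of raw read counts per gene for 18 libraries. The submitters' processing notes name STAR 2.7.1a and featureCounts 1.6.2 and, for mouse, the build GRCm38 (mm10); annotation, strand setting and treatment of multi-mapping reads are not given in the sources used here. Per the labels' protocols, polyA RNA was amplified as full-length cDNA (SMART-Seq) and made into Nextera XT libraries, with no molecular identifiers named, so counting error is a lower limit. Columns were matched to libraries by title.

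Rows were filtered with filterByExpr (minimum count 10, minimum total 15), scaled by TMM and fitted with 4 group means in edgeR 4.0.16 (glmQLFit, glmQLFTest; R 4.3.3), with Benjamini-Hochberg adjustment over 15944 rows. A gene is called at an adjusted p under 0.05. Alternatives included DESeq2 1.42.0. Log2 CPM for pattern likeness used a prior count of 2 and genes with a mean of at least 3 on that scale. The code was tested on simulated data. Replicates of each group were not repeats of 1 library (each pair gave a mean chi-square of 21.2 or more per gene). Between the vector groups, the deviations of equally numbered libraries from their group means correlated across genes with 0.103, 0.421 and 0.339. Unequally numbered libraries were not compared, and Old-Control and Old reached 0.359 for number 3. Numbers 2 and 3 carry M in Old-Control and not in Old-OSK. The numbers are thus not shown to be pairs, and a fit with them as a block was run as an alternative only. Members and lists were chosen with earlier results of these data known. Beside the 10 members, the text names up to 3 called genes per list and comparison (lowest p) and the 2 genes nearest in pattern.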

Additional observations from a re-analysis of the deposited data

Results flagged for a closer look

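Trf in Old was flagged because 1 of the 4 libraries lay far from the others: Old replicate 4 had 11100 CPM, while the other 3 had 23390 to 24900 CPM. The gap to the nearest library was 0.891 of the group's range, above Dixon's critical value for 4 libraries. This was 1 flag among 30 gene and group combinations, and chance flags about 1 in 20. Old-Control, with 3 libraries, was too small for this rule and was not examined. Its replicate 2 had less Trf (8725 CPM) than Old replicate 4. Old replicate 4 also had the lowest summed RPE markers of its group (28350 CPM, against 48700 to 50110 CPM). The part of these markers in the Trf value was not tested.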

How the results depend on the processing

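In Old against Young the count of members called was 3 under median-ratio size factors, no filter, a stricter one (mean count of 50 or more), DESeq2, the 2 groups alone and M as a covariate, and 2 to 3 in the 11 fits without a library. The share of all rows called was 15.4% with DESeq2, 3.76% with M as a covariate and 2.47% to 13.4% in the fits without a library. In the rest of these settings it was 5.54% to 11.3%. The member count was 2 in the 4 Young and 4 Old libraries without M, where 1.26% of all rows were called. With the replicate number as a block in those 8 libraries it was 0, and no gene of the table was called in that fit; the labels do not pair these groups, and the deviations of equally numbered libraries correlated with -0.193 to 0.144, so this is no sign of a weaker effect. In Old-OSK against Old-Control the count was 0 except with DESeq2 (3), in the fits without a library (0 to 5) and, chosen after seeing the data, without both Old replicate 4 and Old-Control replicate 2 (5, where 23.3% of all rows were called). The replicate block changed no member's call there. Calls over all rows ranged from 2 (the 2 groups alone) to 3729 in this comparison, against 116, and from 0 (replicate block) to 2452 (DESeq2) in Old against Young, against 1524. In Old-Control against Old the count was 0 in each setting run. No called member changed sign in any of these settings. Slc40a1, with 17 counts in its lowest library, has the least depth of the members.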
